A study of Mus musculus with 3 samples.

Results

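A set of 10 genes that make, clear or sense prostanoids was followed in endothelial cells (ECs) of the mouse lung, without and after an injection of melanoma cells. The genes were picked by symbol out of the 32285 genes of the count tables and comprise the cytosolic phospholipase Pla2g4a, the cyclooxygenases Ptgs1 and Ptgs2, the terminal synthases Ptgis, Ptges and Ptges3, the transporter Slco2a1, the dehydrogenase Hpgd and the receptors Ptger4 and Ptgir. Ptgs1 was chosen by its lower count at 30 h in these same libraries, so its values in that contrast are given as a description only. The 6 h contrast of Ptgs1 shares its control library with that choice, so it is a description as well. The levels of the 10 members were read in barcodes with 1000 to 5000 detected genes, under 20% mitochondrial UMIs and at least 2 UMIs of Pecam1 and Cdh5 together, where a UMI stands for a single RNA molecule caught in the droplet. That left 11231 barcodes from control lungs, 10583 at 6 h and 9278 at 30 h.

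All mice were wild-type C57BL/6. The control library came from lungs taken 6 h after an injection of PBS, and the other libraries from lungs taken 6 h or 30 h after 200000 B16-F10 cells, a mouse melanoma line, had been injected in 100 µl of PBS into the tail vein, where each of the 3 groups is 1 library. The labels give 2 mice per treatment and the study's methods 3 male mice pooled per sample, so neither the number of animals nor their spread can be read from the counts. Lungs were digested warm with collagenase, cells with surface Pecam1 and without Ptprc were taken by sorting, and melanoma cells were added to the 6 h library per its label. No 30 h library of mice given PBS was analysed here, so time after injection and the tumor cells cannot be told apart at 30 h.

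Prostanoids are short-lived lipid signals. A phospholipase frees arachidonic acid from membranes, a cyclooxygenase turns it into an unstable endoperoxide, and terminal synthases turn that into prostacyclin, prostaglandin E2 or thromboxane, which act on G protein-coupled receptors. Prostacyclin from the vessel wall relaxes smooth muscle and restrains platelets, and the lung is known as the organ that clears prostaglandins from passing blood, by uptake through Slco2a1 and oxidation by Hpgd.

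Pecam1 and Cdh5 were required by the choice of barcodes and so do not check the label. The leukocyte gene Ptprc, which the sort was set against, had a UMI in 0.436% to 1.13% of the barcodes. The libraries totalled 140601123, 132566934 and 124085451 UMIs (control, 6 h, 30 h), and the median per EC barcode was 7782, 8033 and 8676 in that order. Pairs of libraries shared 22 to 38 barcode sequences among their ECs. A class was assigned by counting distinct markers of general capillary cells (gCap), aerocytes (aCap, the large capillary cells of gas exchange), arteries, veins and lymphatic cells (LEC), none of which is a member. This gave 5084, 4945 and 3794 gCap, 1574, 1291 and 1517 aCap, 336, 285 and 378 artery, 487, 353 and 373 vein and 62, 51 and 53 LEC barcodes in the control, 6 h and 30 h libraries, while 3163 to 3688 barcodes per library matched no class. Levels are counts per 1000000 UMIs (CPM) of summed barcodes, with exact 95% Poisson intervals, and differences are folds of CPM with exact conditional binomial intervals. Such intervals cover counting error only, so with 1 library per group none of the differences has a replicate check and no test was possible.

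The promoter sequences of the 4 members that the findings turn on are shown first, from RefSeq on GRCm38.p6, 250 bases before to 50 bases after the start of the gene in that table. Pla2g4a and Ptgs2 shared a vein-restricted pattern and are neighbours on chromosome 1, and Ptgs1 and Hpgd had the lower levels seen across classes. They come from chr1:149961241-149961540 on the minus strand (Pla2g4a, the farther upstream of its promoters in the table), chr1:150099781-150100080 on the plus strand (Ptgs2), chr2:36230176-36230475 on the plus strand (Ptgs1) and chr8:56294302-56294601 on the plus strand (Hpgd). Capitals mark matches to 7 motifs searched on both strands.
Pla2g4a: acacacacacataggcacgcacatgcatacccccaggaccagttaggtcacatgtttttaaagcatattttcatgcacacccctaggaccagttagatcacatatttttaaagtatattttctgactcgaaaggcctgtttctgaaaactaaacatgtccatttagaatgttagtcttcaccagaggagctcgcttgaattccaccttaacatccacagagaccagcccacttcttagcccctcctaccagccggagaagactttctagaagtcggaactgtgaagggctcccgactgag
Ptgs2: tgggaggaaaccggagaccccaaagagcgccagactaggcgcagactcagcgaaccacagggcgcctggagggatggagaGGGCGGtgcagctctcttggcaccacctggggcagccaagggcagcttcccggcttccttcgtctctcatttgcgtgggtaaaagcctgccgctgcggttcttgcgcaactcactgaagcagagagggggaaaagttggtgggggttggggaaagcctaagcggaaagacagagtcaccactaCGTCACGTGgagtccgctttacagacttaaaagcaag
Ptgs1: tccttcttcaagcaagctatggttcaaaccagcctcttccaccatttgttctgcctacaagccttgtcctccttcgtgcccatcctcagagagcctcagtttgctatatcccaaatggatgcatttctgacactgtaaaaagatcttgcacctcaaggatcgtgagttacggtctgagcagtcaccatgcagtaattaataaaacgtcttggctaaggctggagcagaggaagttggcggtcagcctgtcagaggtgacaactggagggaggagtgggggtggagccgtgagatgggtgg
Hpgd: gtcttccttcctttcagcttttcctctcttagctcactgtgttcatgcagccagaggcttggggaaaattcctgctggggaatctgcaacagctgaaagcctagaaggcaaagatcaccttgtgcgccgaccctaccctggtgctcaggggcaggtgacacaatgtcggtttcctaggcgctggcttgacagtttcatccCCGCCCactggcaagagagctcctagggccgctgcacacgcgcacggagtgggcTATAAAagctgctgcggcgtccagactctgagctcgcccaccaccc

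In the Ptgs2 window, an E-box (CACGTG, in 7.15% of the 32851 promoters of the table) began at base 17 from the gene start of that table. It overlapped a CRE core (TGACG, in 20.8%) that began at base 14 on the other strand, and a GC box (GGGCGG, in 35.7%) lay farther upstream. The Hpgd window held a TATA box (TATAAA, in 13.6%) and a GC box. Neither the Ptgs1 window nor the printed Pla2g4a window held any of these motifs or the AP-1 site (TGANTCA, in 7.81%), the STAT site (TTCNNNGAA, in 8.30%) or the CCAAT box (CCAAT, in 37.4%). Such matches describe the letters of the window and no more. Of the 10 members 9 had a promoter in the table, all but Ptgis. Pla2g4a (chr1:149829618-149961290, minus strand) and Ptgs2 (chr1:150100031-150108227, plus strand) point away from each other, with 138.74 kb and no protein-coding gene between them.

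Across all ECs, Ptgs1, Ptgs2 and Hpgd were lower at 30 h than in the control, Ptgs1 was already lower at 6 h, and none of the members at the level needed to be counted was higher by the fold used as a limit. Of the 10 members 7 had a mean of at least 5 CPM, which is that level, and a gene was counted when log2(CPM + 1) differed by at least 1.5-fold. At 6 h against the control 1 member was lower and 0 higher, where 1.14% of the 10175 genes at that level were lower and 1.8% higher. That member was Ptgs1, whose choice used the same control library, so nothing is read from this count. At 30 h against the control 3 members were lower and 0 higher, where 4.39% of genes were lower and 4.24% higher. Nothing is read from the 30 h count either, since Ptgs1 was chosen by this contrast. At 30 h against 6 h 2 members were lower, Ptgs1 and Ptgs2, and 0 higher, where 4.61% of genes were lower and 4.69% higher. This count also uses the 30 h level of Ptgs1, and nothing is read from it either. The median log2 difference of the 7 was −0.15, −0.31 and −0.38 in these comparisons, beside −0.01, −0.07 and −0.07 over all genes at that level. These 3 comparisons share libraries and the medians include Ptgs1, so nothing is read from any of the medians. The call nearest to the limit was Ptgs1 at 6 h, at −0.67 on the log2 scale, and the nearest miss was Ptges3 at 30 h against 6 h, at −0.54.

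**Figure D1:**
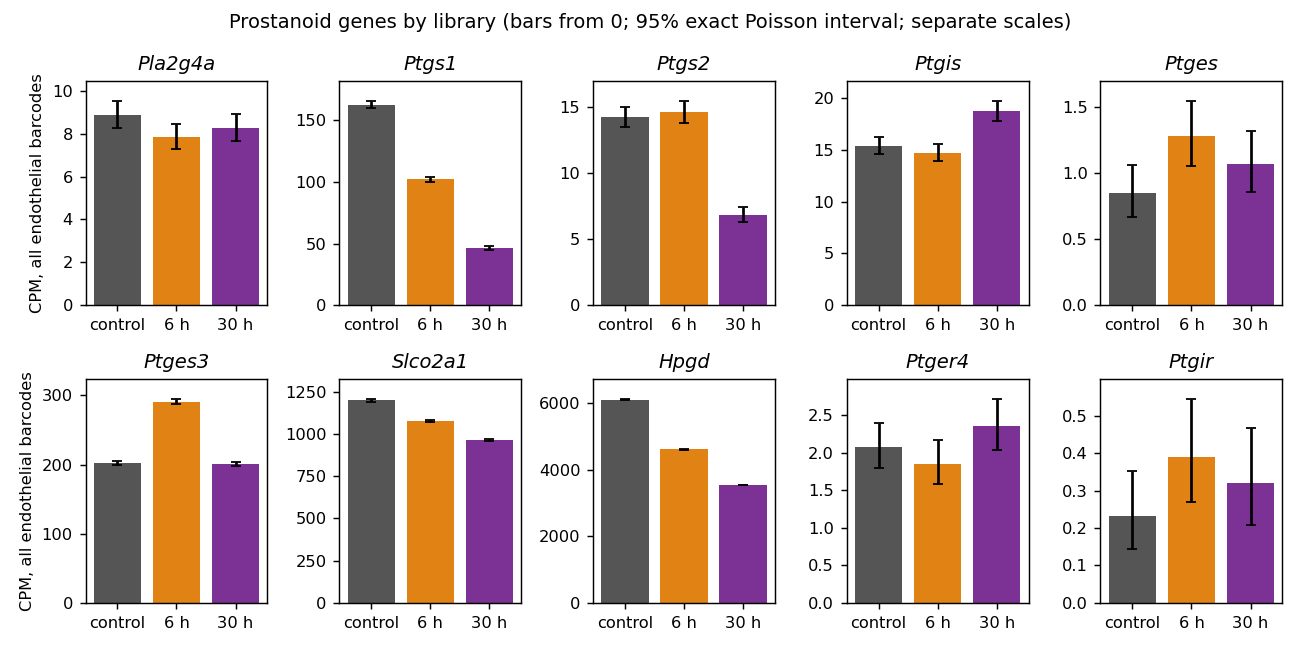
Level of the 10 members in all EC barcodes of each library, in CPM, as bars from 0 on a separate linear scale per gene, with 1 bar per library (control, melanoma 6 h, melanoma 30 h) and whiskers for exact 95% Poisson intervals. Ptgs1 steps down from 163 to 102 and 46.4 CPM, Ptgs2 is lower at 30 h alone, and Ptges3 is high at 6 h alone.

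The RNA of Pla2g4a was concentrated in vein barcodes, where the 3 libraries differed by less than counting error. Pla2g4a encodes the calcium-dependent phospholipase that frees arachidonic acid. Its level in vein barcodes was 109 CPM in the control, 109 CPM at 6 h and 104 CPM at 30 h, against 0.531, 0.796 and 0.325 CPM in gCap barcodes. The libraries overlapped within the vein class, where the fold at 30 h against the control was 0.957 (0.841 to 1.09). Artery barcodes had 9.61, 11 and 4.76 CPM from 28, 29 and 17 UMIs, of which a single barcode held 12, 8 and 4, and aCap barcodes lay at 0.636 to 1.01 CPM. Empty droplets, barcodes with 10 to 100 UMIs that show the free RNA of a library, held 5.70, 10.1 and 11.8 CPM of Pla2g4a from 5, 7 and 31 UMIs, so nothing is read from its artery levels. In LEC barcodes 1 UMI was found in all 3 libraries together. The vein gate held 4.34%, 3.34% and 4.02% of the barcodes and 69.1%, 58.0% and 62.4% of the Pla2g4a UMIs. A further 23.3% to 31.9% of all its UMIs lay in barcodes of no class.

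The inducible cyclooxygenase Ptgs2 (COX2) had its highest level in vein barcodes as well, and that level was lower at 30 h than in either other library. It was 183 CPM in control vein barcodes, 220 CPM at 6 h and 95.3 CPM at 30 h. The 3 intervals did not overlap, and the order was 6 h, control, 30 h. Folds against the control were 1.20 (1.09 to 1.32) at 6 h and 0.521 (0.461 to 0.587) at 30 h. In gCap barcodes Ptgs2 stood at 0.239 CPM in the control, 1.21 CPM at 6 h and 1.33 CPM at 30 h. Most of the gCap UMIs after injection came from a single barcode per library (looked up after the class levels were seen), with 29 of 47 UMIs at 6 h and 33 of 41 UMIs at 30 h. Those barcodes also held 38 and 320 UMIs of the neutrophil gene S100a8 and 5 and 14 UMIs of Ptprc, and without them the gCap level was 0.462 CPM at 6 h and 0.260 CPM at 30 h. In artery barcodes 19, 18 and 0 UMIs of Ptgs2 were counted. A single barcode held 12 of the 19 in the control and another 6 of the 18 at 6 h, and without the top barcode of each library the levels were 2.42 and 4.58 CPM in place of 6.52 and 6.82 CPM. At 30 h the 0 of 3571907 UMIs allows up to 0.840 CPM by a floor of 3 counts, and the exact interval ends at 1.03 CPM. Empty droplets held 10.3, 15.8 and 7.96 CPM of Ptgs2 from 9, 11 and 21 UMIs, above the gCap and artery levels in every library. Nothing is therefore read from its artery levels, and the part of free RNA in the gCap values was not tested.

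A few cells carried most of the Ptgs2 RNA. In all ECs, 50% of its UMIs sat in 43 barcodes of the control, 25 at 6 h and 25 at 30 h. The share of vein barcodes with a UMI, after each barcode was thinned to 2000 UMIs, was 20.7% in the control library (interval 17.2% to 24.6%). It was 18.4% (14.5% to 22.9%) at 6 h and 13.1% (9.88% to 17.0%) at 30 h, and 41.7%, 41.4% and 30.0% before thinning. After thinning it was 0.0199% to 0.102% in gCap barcodes, and the intervals of the thinned vein shares overlapped between each pair of neighbouring libraries. At 6 h the share thus lay below the control where the summed level lay above it, and no direction is read for vein barcodes at 6 h. A Poisson interval of a sum treats UMIs as independent, so for Ptgs2, where single vein barcodes held up to 50 UMIs, it is too narrow. Without the top vein barcode of each library the levels were 176, 207 and 89.6 CPM.

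Ptgs2 is also an immediate early gene that cell dissociation can raise. The 8 genes of digestion and early response (Fos, Fosb, Jun, Junb, Egr1, Atf3, Hspa1a and Hspa1b) summed to 11000 CPM in control vein barcodes, 13191 CPM at 6 h and 7711 CPM at 30 h, the same order as the summed Ptgs2 levels. Their part in the Ptgs2 values was not tested.

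Ptgs1 encodes the constitutive cyclooxygenase (COX1), and its level lay above that of empty droplets in gCap and vein barcodes of every library. It was lower at 6 h and lower again at 30 h. Over all ECs it was 163 CPM (160 to 165) in the control, 102 CPM (100 to 104) at 6 h and 46.4 CPM (44.9 to 47.9) at 30 h, from 14773, 8918 and 3777 UMIs. The 3 intervals did not overlap, and the folds against the control were 0.628 (0.612 to 0.645) at 6 h and 0.285 (0.275 to 0.295) at 30 h. In gCap barcodes the level was 181, 111 and 41.8 CPM, in aCap barcodes 50.5, 32.9 and 9.77 CPM, and in artery barcodes 51.8, 19.3 and 11.2 CPM. The order control, 6 h, 30 h was thus the same in these classes, although the artery intervals at 6 h and 30 h overlapped. The aCap and artery levels also lay below those of empty droplets in every library, which are given below.

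Vein barcodes had the highest Ptgs1 level in every library and the smallest difference at 30 h among the blood vascular classes. They stood at 405 CPM (388 to 423) in the control, 302 CPM (285 to 321) at 6 h and 240 CPM (225 to 255) at 30 h. The fold at 30 h was 0.592 (0.548 to 0.639) in vein barcodes, against 0.230 (0.217 to 0.244) in gCap, 0.194 (0.163 to 0.229) in aCap and 0.216 (0.149 to 0.308) in artery barcodes. The vein interval lay apart from the other 3, and the level in vein over gCap barcodes was 2.24-fold, 2.73-fold and 5.74-fold in the control, 6 h and 30 h libraries. At 30 h the vein gate held 25.6% of all Ptgs1 UMIs, against 14.0% in the control. LEC barcodes had 2, 3 and 3 UMIs of Ptgs1.

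The same counts can be read as the share of barcodes with a UMI, which is no separate support. At 2000 UMIs per barcode, Ptgs1 was found in 23.1% (22.3% to 23.9%) of control EC barcodes, 16.3% (15.5% to 17.0%) at 6 h and 7.21% (6.69% to 7.76%) at 30 h. In vein barcodes the shares were 55.0%, 41.6% and 38.3%, and in gCap barcodes 26.2%, 18.5% and 7.33%. LEC barcodes, which had median depths of 8099 to 9284 UMIs against 7173 to 7950 in gCap, gave 0 of 62, 0 of 51 and 1 of 53 barcodes at the thinned depth. With so few LEC barcodes that share is loosely known, and at 30 h its interval (0.0478% to 10.1%) held the gCap share and the aCap and artery shares of 1.72% and 1.59%. On the CPM scale the LEC level was 3.74 (0.453 to 13.5), 7.06 (1.45 to 20.6) and 5.75 (1.19 to 16.8). The gCap level lay above these intervals in all 3 libraries and the aCap level in the control and at 6 h, but the artery level lay inside at 6 h and both aCap and artery inside at 30 h. By this comparison, what was left of Ptgs1 in aCap and artery barcodes at 30 h could not be told from background at this depth. The same held for the artery level at 6 h, and the folds there may be folds at a floor. Empty droplets held more Ptgs1 than aCap and artery barcodes in every library, the control included, so this limit is not confined to 30 h.

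Ptgs1 is the cyclooxygenase of platelets, and platelet RNA was present in all libraries. The 6 platelet markers were all detected, with a summed level of 149 CPM in control ECs, 181 CPM at 6 h and 149 CPM at 30 h. In vein barcodes they summed to 37.9, 58.8 and 65.5 CPM and in gCap barcodes to 158, 176 and 162 CPM. The sums were 92.9, 124 and 80.0 CPM in aCap and 85.5, 96.2 and 65.2 CPM in artery barcodes. The part of platelet RNA in the Ptgs1 values by class was not tested. Barcodes carrying RNA of no other cell type had Ptgs1 at 160, 103 and 46.8 CPM, close to the values of all ECs. That filter took out 844, 987 and 951 barcodes for platelet RNA, while the platelet markers summed to 148, 202 and 177 CPM in empty droplets. It therefore cannot tell the part of platelet RNA in the Ptgs1 values. Empty droplets held 82.1, 59.1 and 25.4 CPM of Ptgs1, in the same order as the cells and above the aCap and artery levels in every library. The part of free RNA in the aCap and artery values was not tested. Gene models that can pick up ribosomal RNA summed to 5056, 6309 and 21326 CPM.

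**Figure D2:**
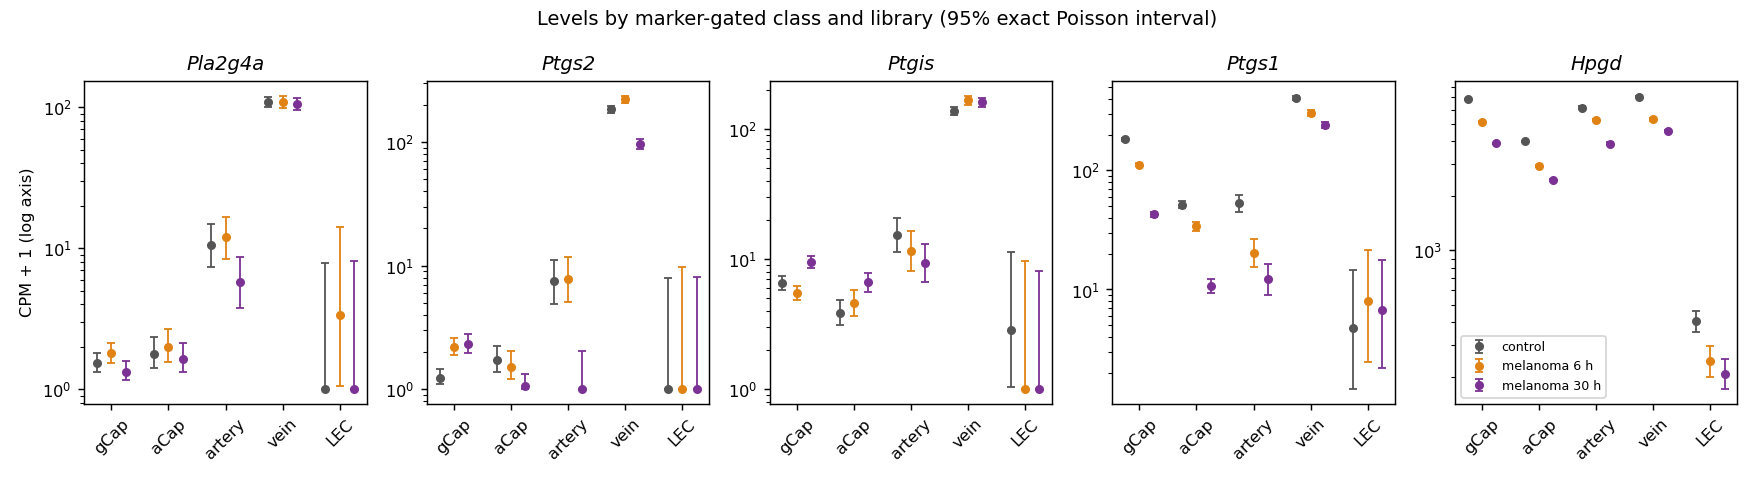
Level of Pla2g4a, Ptgs2, Ptgis, Ptgs1 and Hpgd in each marker-gated class and library, as CPM + 1 on a log axis with exact 95% Poisson intervals. Pla2g4a and Ptgs2 stand near 100 to 200 CPM in vein barcodes and at 1.33 CPM or less in gCap and aCap barcodes, whereas Hpgd stands above 2000 CPM in all blood vascular classes.

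Prostacyclin synthase, encoded by Ptgis, had its highest level in vein barcodes too, and its summed level there was not lower after injection. Vein barcodes had 136 CPM (126 to 146) in the control, 165 CPM (152 to 179) at 6 h and 159 CPM (147 to 171) at 30 h, so both later libraries lay above the control by 1.21-fold (1.09 to 1.36) and 1.17-fold (1.05 to 1.30). The share of vein barcodes with a UMI at 2000 UMIs each was 25.9% (22.0% to 30.0%), 30.0% (25.3% to 35.1%) and 21.7% (17.6% to 26.3%), so at 30 h it went the other way, with overlapping intervals, and no direction is read for vein at 30 h. In gCap barcodes the level was 5.55, 4.49 and 8.46 CPM, and the fold at 30 h was 1.52 (1.26 to 1.84). In aCap barcodes it was 2.88, 3.59 and 5.61 CPM. Empty droplets held more Ptgis than either class, at 21.7, 37.5 and 39.8 CPM, and the part of free RNA in the capillary values was not tested. Artery barcodes had 14.4, 10.6 and 8.40 CPM from 42, 28 and 30 UMIs and a fold of 0.583 (0.352 to 0.953) at 30 h. A single control barcode held 13 of the 42 UMIs, and without it the fold was 0.840 (0.487 to 1.45), or 0.646 (0.357 to 1.16) without the top barcode of each library (both tried after seeing the data), so no difference in artery barcodes was detectable at this depth. Barcodes that also carried fibroblast RNA had 85.2, 108 and 90.6 CPM of Ptgis, and the part of fibroblast RNA in the Ptgis values was not tested.

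In the control library all 4 levels were higher in barcodes with more vein markers. As the number of the 5 vein markers found in a barcode went from 0 to 5, Pla2g4a went from 0.566 to 129 CPM, Ptgs2 from 0.371 to 220 CPM, Ptgis from 3.54 to 140 CPM and Ptgs1 from 126 to 387 CPM. Ptgs2 stood at 24.1 CPM with 3 markers, 138 CPM with 4 and 220 CPM with 5. At 30 h Ptgs1 went from 25.5 to 249 CPM over the same range. In single vein barcodes, a UMI of all 4 genes (Pla2g4a, Ptgs1, Ptgs2 and Ptgis) was found in 95 of 487 (19.5%) in the control, 73 of 353 (20.7%) at 6 h and 59 of 373 (15.8%) at 30 h. Pla2g4a and Ptgs2 were found together in 30.6% of control vein barcodes, where the product of their separate shares is 22.1%. The other 5 pairs of these genes lay nearer to the product there, such as Ptgis and Ptgs2 at 27.9% against 26.7%, and Ptgs1 and Ptgs2 lay just below it, at 38.6% against 38.9%. These shares are from barcodes that were not thinned. With 4 and 5 vein markers, control barcodes held Pla2g4a in 33.9% and 64.9% and Ptgs2 in 29.8% and 50.1%. Their median depths were 9553 and 11041 UMIs. The part of depth and of vein markers in the joint shares was not tested.

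**Figure D3:**
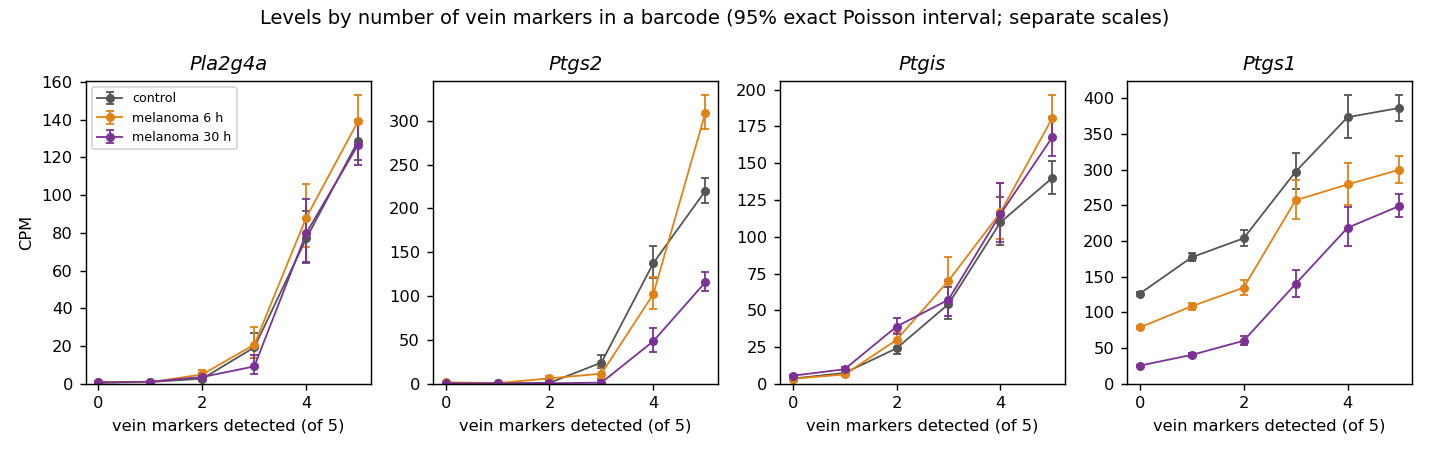
Level of Pla2g4a, Ptgs2, Ptgis and Ptgs1 in EC barcodes sorted by how many of 5 vein markers they held (x axis, 0 to 5), in CPM on a linear axis with a separate scale per gene, with a line per library, exact 95% Poisson intervals and LEC barcodes left out. In the control Pla2g4a climbs from 0.566 to 129 CPM and Ptgs2 from 0.371 to 220 CPM, whereas Ptgs1 starts at 126 CPM.

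Over all ECs, Ptges3 was higher at 6 h than in the other libraries, by less than the limit used here, and Ptges was found in few UMIs. Ptges3 encodes p23, a co-chaperone of Hsp90 that can also make prostaglandin E2. It stood at 203 CPM in the control, 291 CPM at 6 h and 200 CPM at 30 h, a fold of 1.44 (1.41 to 1.46) at 6 h, below the limit of 1.5, and 0.99 (0.969 to 1.01) at 30 h. The 6 h level was the highest of the 3 in every class, with folds at 6 h of 1.44 in gCap, 1.41 in aCap, 1.28 in artery, 1.53 in vein and 1.58 in LEC barcodes. In aCap barcodes the 30 h level lay below the control, at a fold of 0.881 (0.841 to 0.923). The genes of digestion and early response named above summed to 6540, 9043 and 4471 CPM over all ECs and were highest at 6 h in every class. Their part in the Ptges3 values was not tested. Empty droplets held 217, 271 and 186 CPM of Ptges3, in the same order as the ECs and above them in the control. The part of free RNA in the Ptges3 values was not tested either. Ptges encodes the inducible prostaglandin E synthase of membranes. Its level was 0.848, 1.28 and 1.07 CPM from 77, 112 and 87 UMIs, a fold of 1.51 (1.12 to 2.05) at 6 h, and the level in aCap barcodes, 1.62, 2.95 and 2.60 CPM, was the highest of the classes. Empty droplets held 2.28, 7.202 and 6.83 CPM of Ptges from 2, 5 and 18 UMIs, more than any class, and with 10% free RNA taken off the log2 difference over all ECs turned from 0.30 to −0.05 at 6 h and from 0.16 to −0.24 at 30 h. No direction is therefore read for Ptges.

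The clearance genes were among the most abundant messages of these cells, and Hpgd was lower after injection in all 4 blood vascular classes. Hpgd encodes the dehydrogenase that inactivates prostaglandins. It made up 0.610% of all EC UMIs in the control, where 1 gene had a higher count, 0.461% at 6 h and 0.354% at 30 h, where 9 genes did. The levels were 6098 CPM, 4605 CPM and 3536 CPM, with folds against the control of 0.755 (0.752 to 0.758) and 0.580 (0.577 to 0.582). A median EC barcode held 45, 33 and 27 UMIs of Hpgd. The folds at 30 h were 0.572 in gCap, 0.608 in aCap, 0.632 in artery and 0.645 in vein barcodes. In LEC barcodes it was 0.512 (0.403 to 0.648), but the epithelial markers summed to 2852 CPM in control LEC barcodes against 129 and 97.7 CPM at 6 h and 30 h. With barcodes carrying RNA of another cell type left out, the LEC levels of Hpgd were 292, 242 and 212 CPM. Over all ECs the 6 epithelial markers, all detected, summed to 778, 576 and 362 CPM. Without the barcodes carrying other RNA the Hpgd difference at 30 h was −0.79 on the log2 scale, as with them. That filter took out 44, 17 and 9 barcodes for epithelial RNA, while these markers summed to 17742, 7488 and 6231 CPM in empty droplets. It therefore cannot tell the part of epithelial RNA in the Hpgd values, which was not tested. Hpgd was found in 98.3%, 95.2% and 95.2% of EC barcodes at 2000 UMIs each, against 14.5%, 21.6% and 17.0% of LEC barcodes. Empty droplets carried 4897, 3741 and 2500 CPM of Hpgd, so free Hpgd RNA moved in the same order. These levels lay above those of aCap and LEC barcodes in every library, and the part of free RNA in the values of both classes was not tested.

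Slco2a1, the transporter that brings prostaglandins into the cell, differed less. It stood at 1198 CPM in the control, 1076 CPM at 6 h and 965 CPM at 30 h, folds of 0.898 (0.891 to 0.906) and 0.805 (0.798 to 0.813). By class the fold at 30 h was 0.819 in gCap, 0.877 in aCap, 0.847 in vein and 0.656 (0.620 to 0.694) in artery barcodes. In LEC barcodes Slco2a1 stood at 118, 58.8 and 69.0 CPM from 63, 25 and 36 UMIs.

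**Figure D4:**
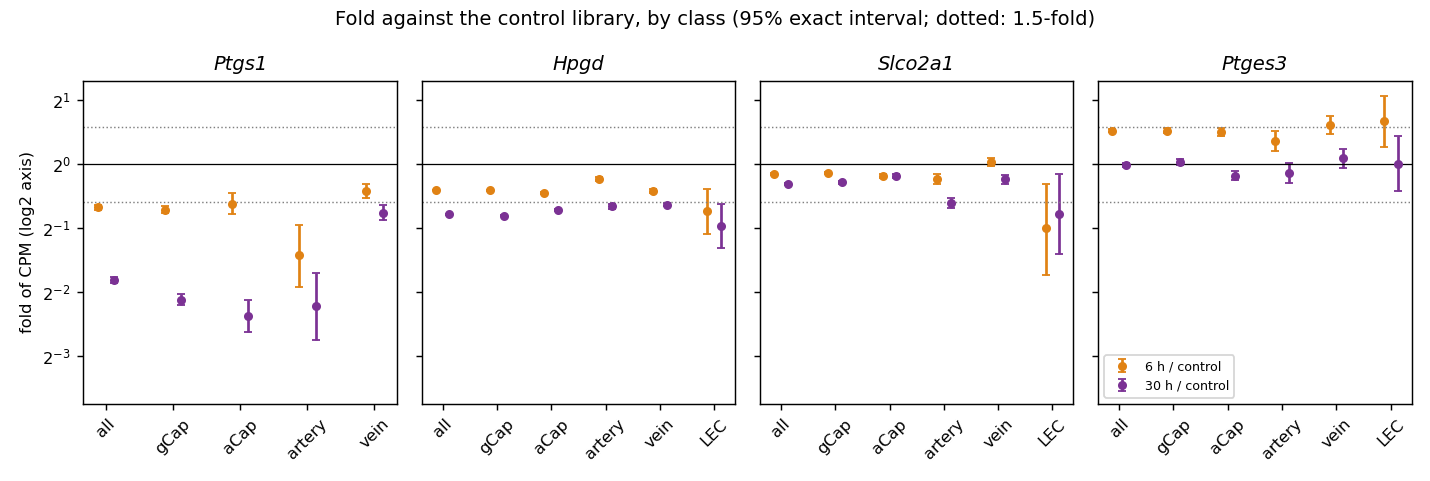
Fold of Ptgs1, Hpgd, Slco2a1 and Ptges3 against the control at 6 h and 30 h, in all ECs and in each class, on a log axis with exact 95% conditional binomial intervals; Ptgs1 in LEC barcodes, with 2 to 3 UMIs, is left out. Ptgs1 at 30 h lies at 0.592 in vein barcodes and near 0.2 in the other blood vascular classes, while Hpgd at 30 h lies between 0.512 and 0.645 in the 5 classes; dotted lines mark 1.5-fold.

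Both receptors were scarce. Ptger4, a receptor for prostaglandin E2, stood at 2.08, 1.85 and 2.36 CPM, and the interval at 30 h (2.03 to 2.71) overlapped that of the control (1.79 to 2.40). Its artery level was 5.83, 4.17 and 3.64 CPM from 17, 11 and 13 UMIs. Empty droplets held 9.12, 4.32 and 4.17 CPM of Ptger4 from 8, 3 and 11 UMIs, above both levels in every library. Nothing is therefore read from its artery levels. Ptgir, the prostacyclin receptor, had 21, 34 and 26 UMIs in all ECs, or 0.231, 0.389 and 0.319 CPM, and the intervals of all 3 libraries overlapped. In gCap barcodes 1, 13 and 5 UMIs were found, or 0.0266, 0.334 and 0.163 CPM, a fold at 6 h of 12.6 (1.89 to 534). After thinning that was 0 of 5024 barcodes in the control and 4 of 4906 at 6 h, and empty droplets held 1.14, 1.44 and 1.52 CPM from 1, 1 and 4 UMIs, above the gCap levels.

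Other genes of the pathway were read from lists. Among phospholipases and other enzymes that free substrate, 19 of 21 listed genes were in the tables, 4 were at the level needed, and 2 of the 4 were higher at 30 h, with 0 lower and a median log2 difference of 0.36, where 4.24% of all genes at that level were higher and 4.39% lower. Lists of so few genes are given by their members, and nothing is read from their counts. Mgll, the lipase that turns endocannabinoid into arachidonic acid, stood at 149, 125 and 239 CPM, 1.61-fold higher at 30 h (1.57 to 1.64), with 398, 376 and 626 CPM in aCap but 28.7, 28.7 and 30.5 CPM in vein barcodes. Plaat3, a phospholipase and acyltransferase, stood at 22.0, 23.7 and 35.3 CPM, 1.61-fold higher (1.52 to 1.7). Empty droplets held 41.0, 40.3 and 42.5 CPM of Plaat3, above its EC level in every library. For Mgll they held 179, 128 and 232 CPM, in the same order as the ECs. The part of free RNA in the values of either gene was not tested. At 30 h against 6 h 1 of the 4, Mgll, was higher, and 0 were lower, where 4.69% of all genes were higher and 4.61% lower.

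Of 8 other prostanoid synthases 7 were in the tables and 5 at the level needed. None was past the limit against the control, and at 30 h against 6 h Prxl2b was higher by 1.73-fold (1.55 to 1.92) and Tbxas1, thromboxane synthase, was 0.607-fold (0.530 to 0.693). Prxl2b stood at 8.12, 6.57 and 11.3 CPM, below the 10.3, 11.5 and 15.5 CPM of empty droplets. Tbxas1 stood at 6.02, 7.04 and 4.27 CPM. Empty droplets held 2.28, 7.202 and 5.31 CPM of it from 2, 5 and 14 UMIs, above its EC level at 6 h and 30 h. The part of free RNA in the values of Prxl2b and Tbxas1 was not tested. Akr1b3, a reductase of endoperoxide and the highest of this list, stood at 72.1, 76.3 and 91.6 CPM. Of 8 genes of breakdown and transport 7 were in the tables, 4 were at the level and 0 passed. Slco3a1, a transporter and the highest among them, stood at 117, 173 and 122 CPM, with a fold of 1.47 (1.44 to 1.51) at 6 h.

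In a list of 10 genes, other prostanoid receptors and related genes, 3 were at the level needed. They were Tbxa2r, Ptgfrn and Ppard, and Tbxa2r was the one past the limit. Tbxa2r is the thromboxane receptor. It stood at 12.9 CPM in the control, 10.5 CPM at 6 h and 37.6 CPM at 30 h, and the 30 h library lay above both others by 2.90-fold (2.71 to 3.11) and 3.56-fold (3.31 to 3.84). The level was 34.9, 32.2 and 109 CPM in aCap barcodes and 7.15, 6.03 and 18.3 CPM in gCap barcodes, with folds at 30 h of 3.12 (2.84 to 3.43) and 2.55 (2.20 to 2.96). Empty droplets held 18.2, 7.202 and 30.7 CPM of Tbxa2r from 16, 5 and 81 UMIs, above the gCap level in every library and in the same order, and the part of free RNA in the gCap values was not tested. The aCap levels lay above those of the empty droplets. LEC barcodes stood at 35.5, 47.0 and 53.7 CPM from 19, 20 and 28 UMIs, where the intervals of all 3 libraries overlapped. In vein barcodes it was 5.86, 4.37 and 9.43 CPM, and those intervals overlapped between the control and 30 h. Ptgfrn, which associates with a prostaglandin receptor and is the highest of this list, stood at 226, 240 and 237 CPM.

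In the neighbouring leukotriene and lipoxygenase branch 6 of 12 genes were at the level, and 1 was higher at 30 h, against the control and against 6 h. That was Ephx1, an epoxide hydrolase, at 62.2, 48.7 and 119 CPM, 1.91-fold higher than in the control (1.84 to 1.97). Empty droplets held 49.0, 44.7 and 97.1 CPM of Ephx1, in the same order as the ECs, and the part of free RNA in its values was not tested. The cysteinyl leukotriene receptors were picked out after their values were seen. Cysltr1 stood at 46.1, 26.0 and 53.4 CPM in vein against 0.106, 0.180 and 0.423 CPM in gCap barcodes, and Cysltr2 at 17.2, 15.2 and 17.6 CPM in artery barcodes. No gene at the level needed passed the limit at 6 h in these 5 lists. Below that level, Hpgds stood at 1.32, 2.58 and 1.71 CPM, and Ptgds at 0.0220, 3.13 and 0 CPM. The 31 barcodes of the 6 h library with melanoma markers carried both, Hpgds at 70.4 CPM from 16 UMIs in 6 barcodes and Ptgds at 3650 CPM, and barcodes carrying immune RNA made up 0.890%, 2.40% and 1.37% of the ECs. The part of either in the 6 h levels was not tested, and both genes were named after their values were seen. The median log2 differences of the 5 lists at 30 h were 0.36, 0.23, 0.16, 0.06 and 0.15 in the order given, beside −0.07 over all genes. They rest on 4, 5, 4, 3 and 6 genes, and nothing is read from them.

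**Figure D5:**
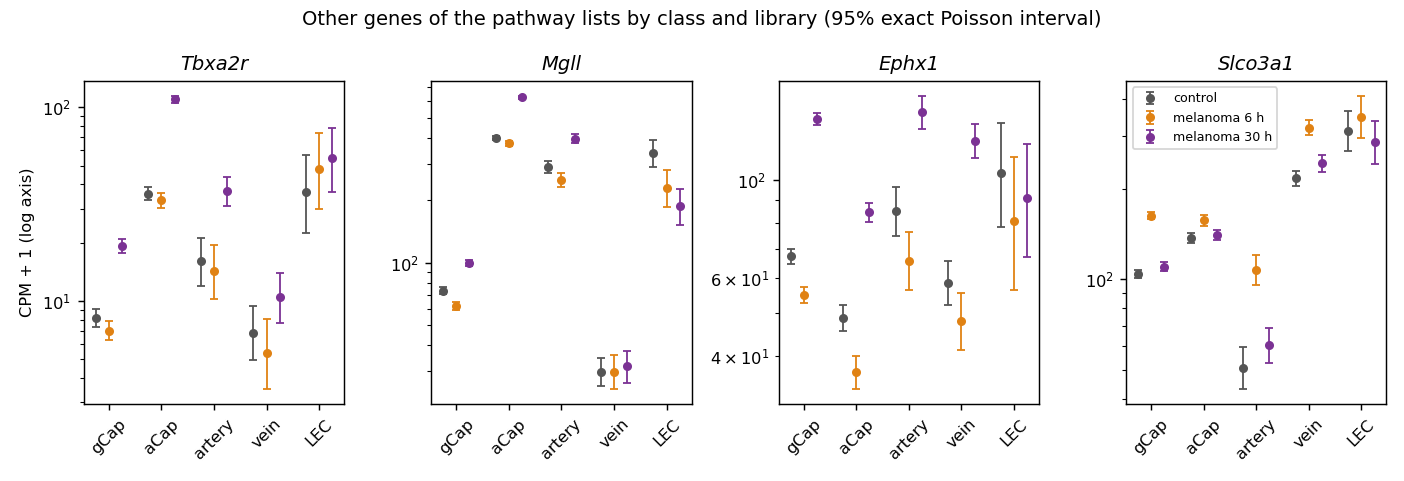
Level of Tbxa2r, Mgll, Ephx1 and Slco3a1 by class and library, as CPM + 1 on a log axis with exact 95% Poisson intervals. Tbxa2r and Mgll are higher at 30 h in aCap barcodes, at 109 and 626 CPM, and Slco3a1 is higher at 6 h in gCap barcodes.

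The genes whose levels moved most like Ptgs1 over the 15 sums of library and class, among 10532 genes at 5 CPM or more over those sums, were Kif13a (Pearson r = 0.944), Prdx6 (0.938), Kdsr (0.937), Gm13889 (0.932) and Nkd2 (0.926). Ptgs2 had the widest range over classes of all members, and the genes most like it were Slc6a2 (0.969), Ano2 (0.969), Mmp16 (0.969), Bst1 (0.968) and Mmp2 (0.960), where Slc6a2 is itself a marker of the vein gate. Sums of the same library share depth and free RNA, and these correlations are descriptions. Kif13a, whose correlation with Ptgs1 was the highest, stood at 200 CPM in control and 182 CPM in 30 h gCap barcodes, so a high r does not mean a fall of like size.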

How the data were processed

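RNA of single cells, read from its 3′ ends in droplets, was analysed in 3 libraries, 1 per group as the labels name the treatment. The authors deposited UMI counts per gene and barcode, unfiltered and not normalized. Per the file headers and the submitters' processing notes these counts were made with Cell Ranger 7.2.0 on mm10, and Seurat 4.4.0 is also named. The study's methods name an older Cell Ranger, and the version in the headers is taken here. Whether intronic reads were counted is not given in the sources used here, and reads shared with overlapping genes cannot be assigned beyond what that counter did.

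Barcodes were kept as described above and doublets were kept in the main values. The class gate needed at least 4 of 5 aCap, vein or LEC markers, 3 of 6 artery markers or 3 of 5 gCap markers with at most 1 of another class, limits set from the markers alone. Counts were summed per library and class of at least 50 barcodes and scaled to CPM. A gene was called when log2(CPM + 1) differed by at least 1.5-fold and its mean was at least 5 CPM. A barcode carried RNA of another cell type with at least 2 distinct markers of it (4 for epithelium, set after seeing the data). Scripts were tested on simulated data. The tools were Python 3.11.15, numpy 2.4.6, scipy 1.17.1, pandas 2.3.3, scanpy 1.11.5 and matplotlib 3.10.9.

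Named were all 10 members, list genes past the limit or with the highest level of their list, and the 5 genes most like Ptgs1 and the member with the widest range. The members and lists were chosen with earlier results of these data known. Gene positions are from GENCODE M21 on GRCm38, 1-based. Alternatives covered barcode limits, doublets, other-cell RNA, scaling, pseudocount, thinning, free RNA, class weights, the level filter and the class gate.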

Additional observations from a re-analysis of the deposited data

Results flagged for a closer look

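Some values moved in opposite directions between groups or lay outside the comparisons above. Ptgs2 in vein barcodes was 1.20-fold the control at 6 h and 0.521-fold at 30 h, and the difference between these was not tested. At 6 h the thinned share of vein barcodes with a Ptgs2 UMI lay the other way, at 18.4% against 20.7%, so no direction is read at 6 h. Ptgis at 30 h was 0.583-fold the control in artery barcodes, but 1.52-fold in gCap and 1.17-fold in vein barcodes. In artery barcodes a single barcode held 13 of the 42 UMIs in the control and another 7 of the 30 at 30 h. Without both the fold was 0.646 (0.357 to 1.16), and without that of the control alone 0.840 (0.487 to 1.45). At 2000 UMIs per barcode, the shares with a Ptgis UMI were 0.604% in control and 1.59% in 30 h artery barcodes, and 25.9% and 21.7% in vein barcodes, against the direction of the sums. The opposite directions, gCap against artery and vein against artery (0.583 in both pairs), were not tested. Ptges3 in aCap barcodes was 1.41-fold at 6 h and 0.881-fold at 30 h, which was not tested either.

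The 6 h library held 31 barcodes with at least 4 of 8 melanoma markers and fewer than 2 UMIs of Pecam1 and Cdh5, with 227141 UMIs in all, and the other libraries held 0. Ptges3 stood at 299 CPM in them, Hpgd at 92.5 CPM and Slco2a1 at 30.8 CPM. Ptgs1 had 1 UMI there, and Ptgs2, Ptgis, Pla2g4a, Ptges and Ptger4 had 0. The prostaglandin D synthase gene Ptgds, which was singled out after its values were seen, stood at 3650 CPM (3405 to 3907) and was found in 30 of the 31 barcodes. In ECs Ptgds had 2 UMIs in the control, 273 at 6 h and 0 at 30 h, and empty droplets of the 6 h library held 98 UMIs of it, or 141 CPM. The part of free melanoma RNA in the EC value was not tested.

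Barcodes with no UMI of Pecam1 or Cdh5, which are no part of the EC comparisons, numbered 123 in the control, 118 at 6 h and 94 at 30 h. Ptgs2 stood at 14.1 CPM in them in the control, 125 CPM at 6 h and 103 CPM at 30 h, from 8, 94 and 68 UMIs. Of those UMIs, 6, 86 and 66 lay in the 11, 32 and 15 barcodes that carried immune markers.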

How the results depend on the processing

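The counts of members called (1, 3 and 2) and the members behind them were the same under 13 other ways of processing. With the vein gate left out, an alternative chosen after seeing the data, 1 member was called at 30 h against 6 h instead of 2, and 2 at 30 h against the control instead of 3, since Ptgs2 then fell under the level filter. Ptgs1 at 30 h ranged from −2.00 to −1.71 on the log2 scale over 14 alternatives, Ptgs2 from −1.05 to −0.68 and Hpgd from −0.79 to −0.71, and Ptgs1 at 6 h from −0.68 to −0.63. Ptgs2 at 6 h ranged from −0.06 to 0.36 and Pla2g4a at 30 h from −0.20 to 0.13, so neither has a direction. Of the ratios over all ECs 363 stayed within their counting interval and 57 moved beyond it, and within classes 397 stayed and 23 moved. Of the shares of barcodes with a UMI, 57 of 60 moved with the thinning depth, and Ptgs1 was found in 37.5%, 27.8% and 13.2% at 4000 UMIs, in the same order as at 2000. No paired analysis was possible because each group is 1 library. Ptgir, Ptges and Ptger4 were limited by depth.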
